A study of Mus musculus with 6 samples.

Results

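The 6 mature miRNAs described here, mmu-miR-224-5p, mmu-miR-383-5p, mmu-miR-378a-3p, mmu-miR-320-3p, mmu-miR-22-3p and mmu-miR-31-5p, were chosen by name because roles in the granulosa cell have been reported for them. All 6 were found among the 1300 miRNAs of the deposited table and all 6 passed the filter on low values, so that they stand among 475 tested miRNAs. They were measured by small RNA sequencing of whole ovary from female C57BL/6J mice, 8 weeks old in the design text and 6 to 8 weeks old in the sample descriptions. The control group of 3 libraries came from mice housed under normal pressure at 1588 m (83.56 kPa, oxygen 17.8 kPa), or 1500 m in the titles. The other 3 libraries came from mice housed in a chamber simulating 6500 m (43.12 kPa, oxygen 8.1 kPa), called hypobaric hypoxia. The design text gives 15 days for all mice, whereas the descriptions give 15, 16 or 17 days by replicate number and name 5000 m for the chamber. Levonorgestrel and ethinylestradiol, given by gavage to synchronize the cycle, appear in the descriptions of both groups, but doses of 0.1 and 0.02 mg/kg are given only for the hypobaric mice. A feeding break of 0.5 hours is given only for the hypobaric mice. Light is given as 12 hours for all libraries. Dark is given as 12, 13 and 14 hours for control replicates 1, 2 and 3 and as 12 hours for the hypobaric libraries. Each group had 15 mice. Whether 1 mouse or several went into a library is not stated, so a p-value here reflects differences between libraries and these may be technical in part.

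Granulosa cells surround the oocyte, respond to follicle-stimulating hormone and make estradiol from androgens with aromatase. Members of the TGF-beta family, acting through SMAD proteins, set their growth and steroid output, and miRNAs tune this system by pairing through their seed, bases 2 to 8, with target transcripts. In mouse granulosa cells miR-224 is induced by TGF-beta and targets Smad4, and miR-383 targets Rbms1 and raises estradiol release. miR-320 was reported to act in mouse granulosa cells on E2f1 and on Sf1, a regulator of steroidogenic genes. In pig granulosa cells miR-378 targets aromatase, and in cattle miR-31 acts on the receptor for follicle-stimulating hormone. A role in mouse granulosa cells has also been reported for miR-22. All of these are also expressed outside the granulosa. In whole ovary, fewer cells of a type and less of a miRNA per cell cannot be told apart.

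Mature sequences from RefSeq (GRCm38.p6) were matched for 3 of the 6, miR-224-5p, miR-22-3p and miR-31-5p. They are shown 5′ to 3′ with the seed in capitals, each above the other arm of its hairpin, because the members do not share a seed and the balance of the arms is compared further on.
miR-224-5p: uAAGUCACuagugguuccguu
miR-224-3p: aAAUGGUGcccuagugacuaca
miR-22-3p: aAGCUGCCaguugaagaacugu
miR-22-5p: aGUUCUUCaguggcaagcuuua
miR-31-5p: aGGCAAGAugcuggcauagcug
miR-31-3p: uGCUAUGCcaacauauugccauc
The 3 member seeds differ from each other. Of the 867 miRNAs in the table with a RefSeq mature sequence, 0 others carried any of these 3 seeds.

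The 6 precursors come from 6 separate loci (GENCODE vM21, GRCm38). That of miR-224 lies on chromosome X, 72261031 to 72261112, minus strand, in an intron of Gabre, a subunit of the GABA-A receptor. That of miR-383 lies on chromosome 8, 38252133 to 38252202, minus strand, in an intron of the sarcoglycan gene Sgcz. That of miR-378a lies on chromosome 18, 61397835 to 61397900, minus strand, in an intron of Ppargc1b, a coactivator of mitochondrial genes. These 3 are on the strand of their host gene. The miR-320 precursor (chromosome 14, 70443510 to 70443591, plus strand) overlaps no other annotated gene and lies 63 bases from Polr3d, a subunit of RNA polymerase III read from the opposite strand. That of miR-22 lies in an exon of Mir22hg, also annotated to Tlcd2, on chromosome 11, 75463716 to 75463810, plus strand. That of miR-31 lies in an exon of the lincRNA AL805899.1 on chromosome 4, 88910557 to 88910662, minus strand.

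Values are RPM, reads per 1000000 reads of the authors' own total for each library. The implied totals were 20800777 to 22559146 reads, so 1 read was worth 0.0443 to 0.0481 RPM. The share of reads assigned to miRNAs was 30.4% to 36.3% at normal pressure and 38.0% to 41.1% under hypobaric hypoxia, and these ranges do not overlap. This bears on every value below, since RPM and shares of miRNA reads then differ between the groups. The gonad-enriched miR-202, a marker of the labelled tissue, summed over both arms to 998 to 1349 RPM and 2191 to 3462 RPM (normal pressure, then hypobaric). Both arms were called higher under hypobaric hypoxia by limma. All 7 listed red cell miRNAs were in the table, with a summed level of 726 to 1577 RPM and 9459 to 15085 RPM, and miR-144-5p at 0 in at least 1 library. Of the 6 red cell miRNAs tested, limma called 4 higher under hypobaric hypoxia. The 4 leukocyte miRNAs summed to 574 to 791 RPM and 923 to 1070 RPM. That sum was mostly miR-150-5p (436 to 636 and 814 to 973 RPM), while the groups overlapped in miR-223-3p and both arms of miR-142a. Of these 4, limma called 0, with 1 at an unadjusted p under 0.05. Over all 475 tested miRNAs limma called 23, and 96 had an unadjusted p under 0.05. The ranges of the endothelial, smooth muscle, epithelial, skeletal muscle and neural lists overlapped between the groups, and the liver miRNA miR-122-5p stayed at 1.51 RPM or less. On the second principal component, with 28.1% of the variance, normal-pressure library 2 and hypobaric library 3 stood apart from the other 4.

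None of the 6 miRNAs passed the test between the groups: limma on log2(RPM + 1), two-sided, with Benjamini-Hochberg adjustment over all 475, called 0 of 6 at an adjusted p of 0.05. At an unadjusted p under 0.05 limma also gave 0 of 6, beside 96 of all 475 tested. After adjustment edgeR on whole reads called 0 of 6 (background 5.26%), and DESeq2 called 1 of 6, miR-22-3p (background 12.6%). Over all tested miRNAs limma called 23 of 475 (4.84%), of which 15 were higher under hypobaric hypoxia and 8 lower; with the miRNA reads as total these were 12 and 19. With 6 members and this background, a count of 0 is near the share of all miRNAs and says nothing particular of the members. Their log2 changes lay between -0.32 and 0.19 with a median of -0.10, beside a range of -7.25 to 6.54 and a median of 0.15 over all tested. In RPM the groups overlapped in all 6, while they did not overlap in 127 of the 475 tested miRNAs (26.7%).

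**Figure D1:**
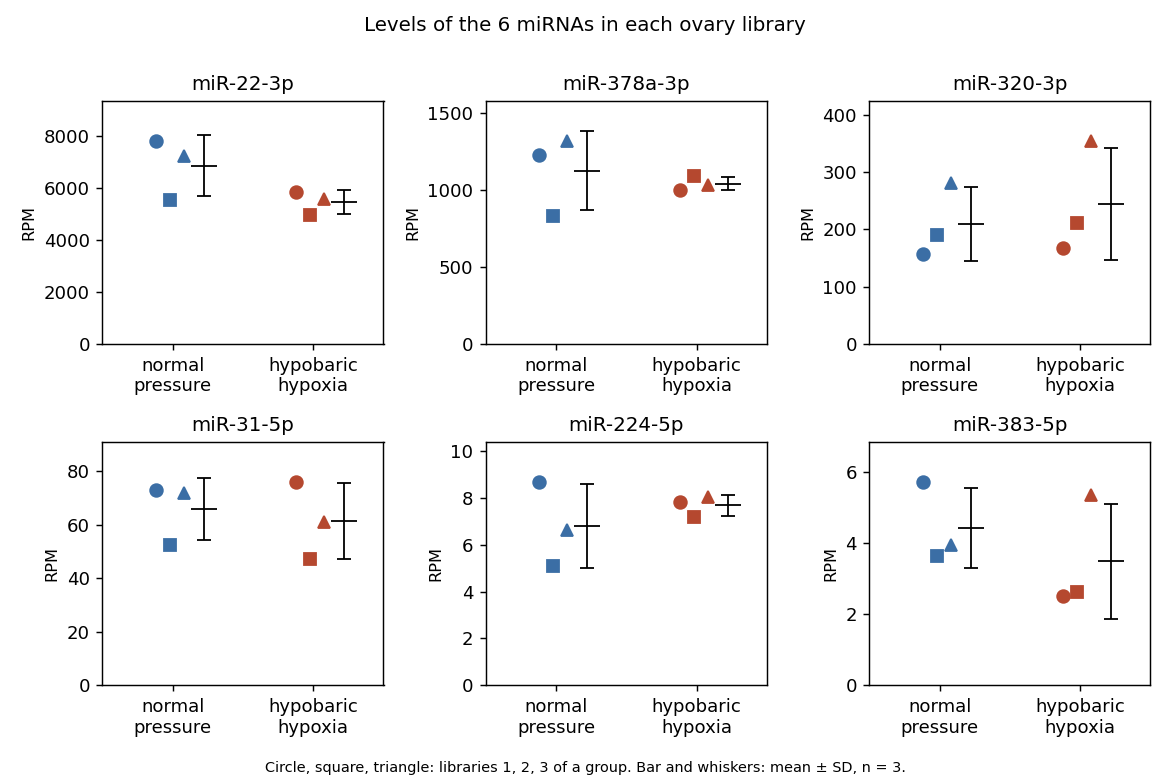
Level of each of the 6 miRNAs in RPM (y axis from 0) in the 3 normal-pressure and 3 hypobaric libraries, with mean ± SD (n = 3). The groups overlap in every panel, and normal-pressure library 2 is the lowest of its group in 5 of the 6.

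By level the members fell in the order miR-22-3p, miR-378a-3p, miR-320-3p, miR-31-5p, miR-224-5p and miR-383-5p. This order held in each library. Reads per miRNA also depend on how well a sequence is ligated, so the order is one of reads. Over the 6 libraries the ranges of neighbours did not overlap, except those of miR-224-5p (5.10 to 8.67 RPM) and miR-383-5p (2.50 to 5.72 RPM).

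mmu-miR-224-5p, the TGF-beta-induced member, had 8.67, 5.10 and 6.63 RPM in the controls (replicates 1, 2 and 3) and 7.83, 7.20 and 8.05 RPM in the hypobaric libraries (replicates 1, 2 and 3). The hypobaric values lie inside the range of the controls. Behind them are 115 to 182 reads per library. The means were 6.80 ± 1.79 and 7.69 ± 0.442 RPM (SD, n = 3). On the log2 scale the difference was 0.18 ± 0.22 (SE), at an adjusted p of 0.649. in limma The 95% interval of the fold change ran from 0.801 to 1.60. As a share of miRNA reads it was at 19.9 ± 3.63 and 19.7 ± 1.23 per 1000000 (SD, n = 3), and the log2 change on that scale was 0.00, with limma adjusted p = 0.995.

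mmu-miR-383-5p, the least abundant member, had 5.72, 3.63 and 3.94 RPM in the controls (replicates 1, 2 and 3) and 2.50, 2.62 and 5.37 RPM in the hypobaric libraries (replicates 1, 2 and 3). Hypobaric libraries 1 and 2, with 53 and 55 reads, lie below all controls, and library 3, with 114 reads, lies between them. The means were 4.43 ± 1.12 and 3.50 ± 1.62 RPM (SD, n = 3). In log2 units this was a difference of -0.31 ± 0.28 (SE), at an adjusted p of 0.545. in limma The interval of the fold change, 0.519 to 1.25, is the lowest-reaching of the 6. Without hypobaric library 3 the log2 change was -0.59, with limma adjusted p = 0.179. Depth limits this member most, since 3 reads are 0.133 to 0.144 RPM and its lowest library holds 53 reads.

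mmu-miR-378a-3p had 1230, 836 and 1320 RPM in the controls (replicates 1, 2 and 3) and 1003, 1090 and 1035 RPM in the hypobaric libraries (replicates 1, 2 and 3). The hypobaric libraries lie close together inside the wider range of the controls. The means were 1128 ± 257 and 1043 ± 43.9 RPM (SD, n = 3). The log2 difference was -0.09 ± 0.20 (SE), at an adjusted p of 0.811 in limma and with a fold interval of 0.686 to 1.29. Its relatives miR-378b and miR-378c share a run of 19 bases with each other, so reads of this family can be assigned to more than 1 name and the split between names is uncertain. miR-378b was at 39.9 to 58.7 RPM, miR-378c at 6.18 to 9.76 RPM and miR-378d at 1 read or fewer in each library. The sum of the 4 names was 1186 ± 267 RPM in the controls and 1106 ± 44.2 RPM in the hypobaric libraries (SD, n = 3). On the log2 scale the difference was -0.07 ± 0.20 (SE), at an adjusted p of 0.833. in limma

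mmu-miR-320-3p, whose hairpin is known to form without the Drosha step, had 158, 190 and 281 RPM in the controls (replicates 1, 2 and 3) and 168, 210 and 354 RPM in the hypobaric libraries (replicates 1, 2 and 3). The highest library of each group is the third, and the spread within a group is larger than the difference between the means. These were 210 ± 64.2 and 244 ± 97.6 RPM (SD, n = 3). In log2 units this was a difference of 0.19 ± 0.32 (SE), at an adjusted p of 0.750. in limma The fold interval was 0.692 to 1.88, the widest of the 6, although at least 3313 reads stand behind each library. Without hypobaric library 3 the log2 change was -0.12 (limma adjusted p = 0.810).

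mmu-miR-31-5p had 73.2, 52.5 and 72.1 RPM in the controls (replicates 1, 2 and 3) and 75.9, 47.3 and 61.1 RPM in the hypobaric libraries (replicates 1, 2 and 3). The hypobaric group holds both the highest and the lowest value. The means were 65.9 ± 11.6 and 61.5 ± 14.3 RPM (SD, n = 3). The log2 difference was -0.11 ± 0.25 (SE), at an adjusted p of 0.804 in limma, with a fold interval of 0.631 to 1.36.

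mmu-miR-22-3p, the most abundant member, had 7815, 5543 and 7253 RPM in the controls (replicates 1, 2 and 3) and 5860, 4960 and 5585 RPM in the hypobaric libraries (replicates 1, 2 and 3). The hypobaric values are below normal-pressure libraries 1 and 3, while library 2 of the controls lies among them. The means were 6871 ± 1183 and 5468 ± 461 RPM (SD, n = 3). On the log2 scale the difference was -0.32 ± 0.16 (SE), at an adjusted p of 0.290 in limma. The fold interval was 0.623 to 1.03. Of the 6 members it had the smallest unadjusted limma p, 0.08, which ranked 131 of 475.

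The result for miR-22-3p depended on how the libraries were scaled. Per 1000000 miRNA reads it had 21503, 18250 and 20706 in control replicates 1, 2 and 3 and 14273, 13043 and 14663 in hypobaric replicates 1, 2 and 3. On that scale all hypobaric libraries lie below all controls. The means were 20153 ± 1695 and 13993 ± 845 per 1000000 (SD, n = 3), a log2 change of -0.52 ± 0.11 (SE), or 0.695-fold, and it passed with limma adjusted p = 0.0251. That scaling called 31 of 475 miRNAs (6.53%), 19 of them lower (4%), and the groups did not overlap in 126 (26.5%), 77 of them lower (16.2%). By level, miR-22-3p ranked 13 to 15 among the miRNAs of the normal-pressure libraries and 21 or 22 in the hypobaric libraries. Such ranks also depend on the other miRNAs, of which miR-451a, for example, ranked 41 to 57 and then 8 to 12. Quantile scaling also gave a call (log2 change -0.61, limma adjusted p = 0.00717, background 5.47%), and so did DESeq2 (-0.49, adjusted p = 0.0413), which called 56 of the 446 miRNAs given an adjusted p (12.6%). Median-of-ratios scaling (-0.47, limma adjusted p = 0.0745, background 5.47%), TMM scaling (-0.45, adjusted p = 0.105, 4.84%) and edgeR (-0.50, adjusted p = 0.0796, 5.26%) did not. Relative to the median of all tested miRNAs, which the authors' totals put at 0.15 and the other 4 scalings at -0.02 to 0.05, miR-22-3p was at -0.47 with the authors' totals and at -0.62 to -0.50 with the others.

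The size of the difference in miR-22-3p on miRNA reads held whichever library was left out, with log2 changes from -0.59 to -0.47, but its call did not. Its limma adjusted p was 0.0763 without normal-pressure library 1, 0.103 without library 3, 0.0709 without hypobaric library 1 and 0.0962 without hypobaric library 2. It passed without normal-pressure library 2 (0.0285) or hypobaric library 3 (0.0441). The 7 red cell miRNAs, with the levels given above, are part of the miRNA reads. With them left out of the denominator miR-22-3p was at 20215 ± 1716 and 14437 ± 931 per 1000000 (SD, n = 3), and the groups did not overlap. The largest of them, miR-451a, averaged 2914 and 30202 per 1000000 miRNA reads, so leaving them out could move this share only slightly. Whether red cells have a part in the difference was not tested.

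**Figure D2:**
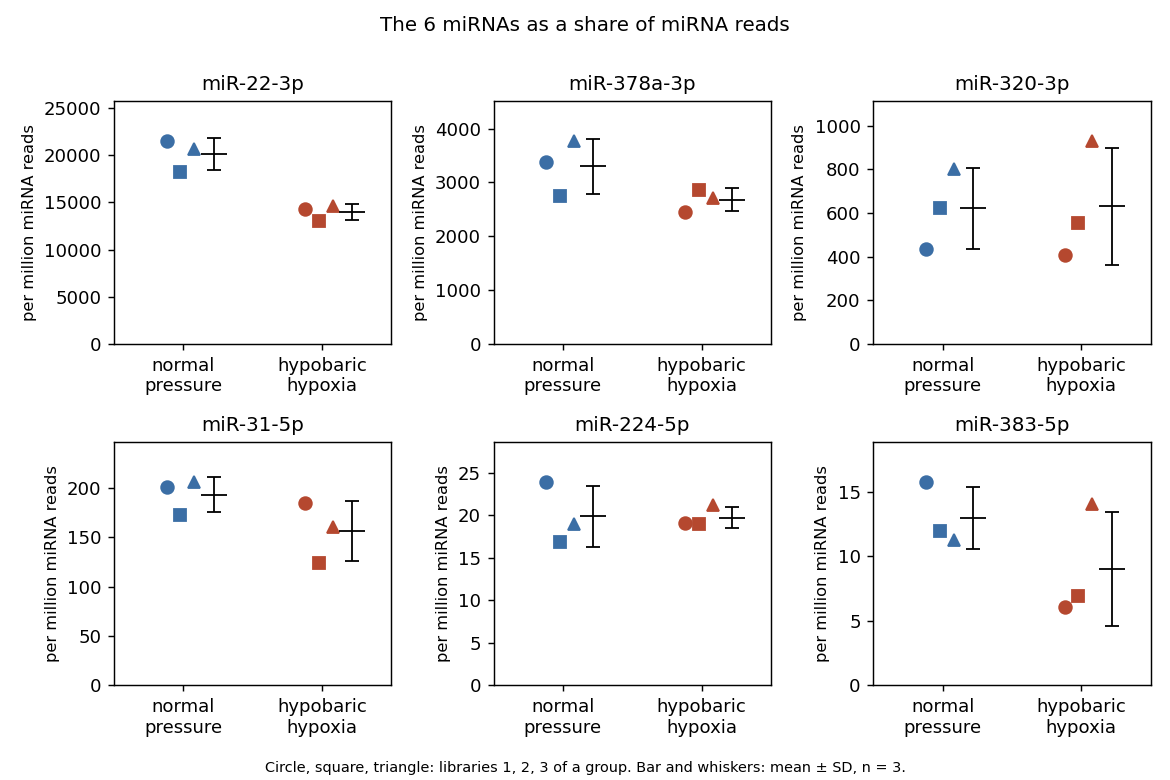
The 6 miRNAs per 1000000 miRNA reads (y axis from 0) in each library, with mean ± SD (n = 3). miR-22-3p is the panel in which the groups do not overlap, with 18250 to 21503 at normal pressure and 13043 to 14663 under hypobaric hypoxia.

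The other 5 members did not pass under any of these scalings or count tests. On the summed miRNA values the log2 change was -0.47 for miR-383-5p, -0.31 for miR-31-5p and -0.29 for miR-378a-3p, with limma adjusted p of 0.383, 0.437 and 0.353. On that scale miR-320-3p was at -0.02 (0.988). The sign of miR-320-3p and miR-224-5p changed with the scaling, and both stayed within 0.14 of the median of all tested miRNAs under each of the 5. Removing the pair of libraries that stand apart on the second component gave negative log2 changes for all 6, from -0.69 for miR-383-5p to -0.01 for miR-224-5p, and limma called 0 of the 6. Over all miRNAs that fit called 47.

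**Figure D3:**
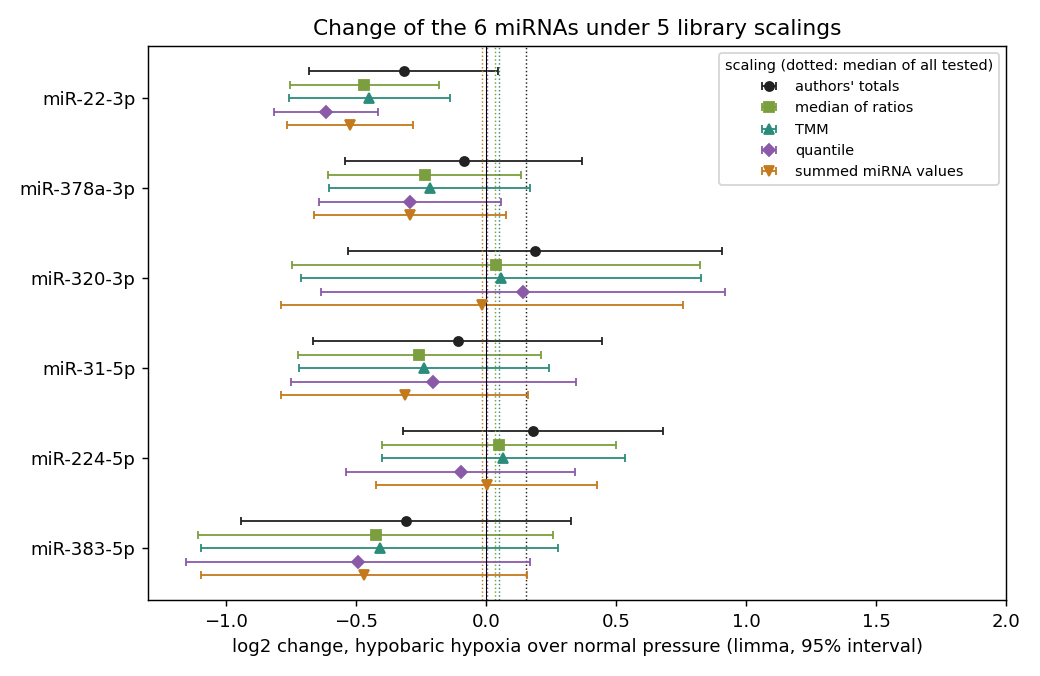
Log2 change (x axis) of each miRNA with its 95% interval from limma under 5 scalings of the libraries, with dotted lines at the median of all 475 tested miRNAs. The miR-22-3p points lie at -0.61 to -0.32 and 4 of its 5 intervals exclude 0, while every interval of the other 5 miRNAs includes 0.

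Members were also compared within each library, as differences in log2(RPM + 1), in which the added 1 weighs on the low members. Of the 15 pairs of members, the groups did not overlap in 1, miR-224-5p over miR-22-3p. This difference was -9.79 ± 0.12 at normal pressure and -9.29 ± 0.07 under hypobaric hypoxia (SD, n = 3), or 0.50 apart. With nothing added the ratios, which do not depend on the library total, were -10.00 ± 0.16 and -9.47 ± 0.07 (SD, n = 3) on the log2 scale, 0.53 apart, and again this was the 1 pair without overlap. Its p was 0.1 in a two-sided exact permutation test, which is the lowest that 3 against 3 libraries allow, and 0.600 after adjustment over the 15 pairs, both with and without the added 1. miR-224-5p was higher relative to miR-22-3p in each hypobaric library than in each control. This pair was picked from the 15 for its lack of overlap, and the share of such pairs among all tested miRNAs was not computed. With 3 against 3 libraries the test cannot pass the threshold for any pair.

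Each hairpin gives a pair of mature arms, of which usually 1 is loaded and kept. In 5 of the 6 precursors both arms were in the table, which did not list miR-383-3p. The member arm was the more abundant in each library. Over all 6 libraries the other arm held 10.1% of the reads of both arms for miR-31, 5.06% for miR-378a, 2.94% for miR-224, 0.187% for miR-22 and 0.0484% for miR-320.

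miR-22-5p had 13.4, 6.56 and 13.6 RPM in control replicates 1, 2 and 3 and 14.9, 12.6 and 8.80 RPM in hypobaric replicates 1, 2 and 3, with overlapping groups. Its log2 change was 0.14 ± 0.31 (SE), limma adjusted p = 0.800. The ratio of the arms, as a difference in log2(RPM + 1), was for miR-22-3p over miR-22-5p 9.19 ± 0.29 at normal pressure and 8.73 ± 0.37 under hypobaric hypoxia (SD, n = 3), with exact permutation p = 0.3, two-sided, and adjusted p = 0.450 over 3 ratios. The difference of the means, -0.46, was larger than either SD, the values of the groups overlapped, and with 3 against 3 libraries this test cannot go below 0.1.

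miR-31-3p had 7.05, 4.34 and 7.79 RPM in control replicates 1, 2 and 3 and 9.81, 7.96 and 6.17 RPM in hypobaric replicates 1, 2 and 3. The log2 ratio of miR-31-5p to miR-31-3p was 3.19 ± 0.13 and 2.79 ± 0.34 (SD, n = 3), with exact permutation p = 0.2, two-sided, and adjusted p = 0.450. With nothing added to the RPM, the ratio was lowest in hypobaric library 2, at 5.94-fold, and highest in normal-pressure library 2, at 12.1-fold. The groups overlapped with and without the added 1.

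miR-378a-5p had 56.8, 56.7 and 55.3 RPM in control replicates 1, 2 and 3 and 60.2, 56.5 and 60.1 RPM in hypobaric replicates 1, 2 and 3. Its highest library was 1.09-fold its lowest, and its SD over the 6 libraries, 0.0498 on the log2 scale, was the second smallest of the 250 miRNAs averaging 10 RPM or more (rank 2, median 0.305). This holds for RPM: per 1000000 miRNA reads it was at 147 to 187, with the highest library 1.27-fold the lowest. The member arm miR-378a-3p ranked 78 by SD in RPM, with 0.232. The log2 ratio of miR-378a-3p to its other arm was 4.27 ± 0.37 and 4.12 ± 0.11 (SD, n = 3), with exact permutation p = 0.6, two-sided, and adjusted p = 0.600.

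The other arms of miR-224 and miR-320 were too low for a test. miR-224-3p had 4, 3 and 6 reads in normal-pressure libraries 1, 2 and 3, and 7, 0 and 8 reads in hypobaric libraries 1, 2 and 3, where 0 reads allow up to 0.143 RPM. miR-320-5p had 0 to 4 reads per library. miR-452-3p, from a neighbouring precursor in an intron of the same gene Gabre, had 1 to 6 reads per library.

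**Figure D4:**
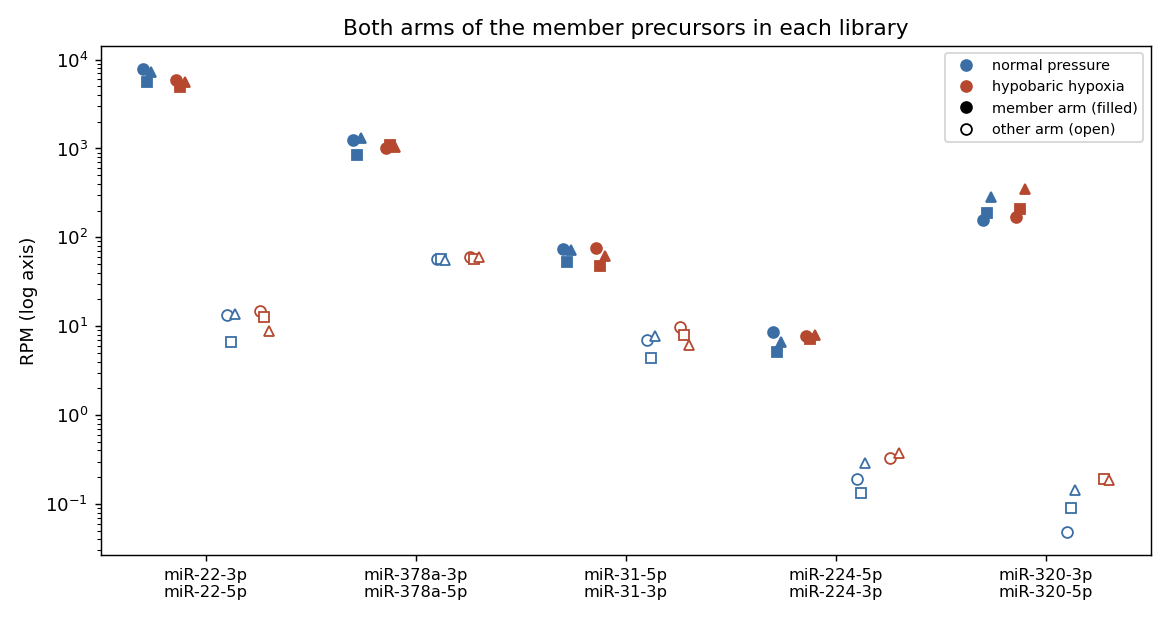
RPM (log axis) of both arms of 5 precursors in each library, member arms filled and other arms open, circles, squares and triangles for libraries 1, 2 and 3. Libraries at 0 (1 for miR-224-3p, 1 for miR-320-5p) are not drawn, and the distance between the arms is smallest for miR-31 and largest for miR-320 and miR-22.

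The miRNAs with the most similar profile were sought for each member among those averaging 10 RPM or more, by the root mean square difference of centred log2(RPM + 1) over the 6 libraries. For miR-31-5p these were miR-200a-5p and miR-200c-3p, arms of the epithelial miR-200 family, at 0.048 and 0.118. miR-200a-5p had 28.0, 21.2 and 28.3 RPM in control replicates 1, 2 and 3 and 30.9, 19.9 and 25.0 RPM in hypobaric replicates 1, 2 and 3, with the same highest and lowest libraries as miR-31-5p. The median difference from miR-31-5p over the 249 candidates was 0.352. For miR-224-5p they were miR-1843a-5p (0.0653) and miR-187-3p (0.0942), and for miR-22-3p miR-3068-5p (0.106) and miR-532-5p (0.109). For miR-378a-3p they were miR-532-5p (0.130) and miR-1843b-5p (0.131). miR-383-5p had miR-100-3p (0.141) and miR-9b-3p (0.196) as its nearest, and miR-320-3p had let-7e-5p (0.222) and miR-26b-3p (0.255). The measure grows with the spread of the member itself, and miR-320-3p and miR-383-5p had the largest SDs (0.451 and 0.394), so it does not order the members by closeness. These values describe the likeness of the profiles over 6 libraries, in which all miRNAs share the same library totals.

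Among 32 other miRNAs with reported roles in granulosa cells, 29 were tested, and limma called 8, of which 4 rose and 4 fell, beside 23 of 475 (4.84%) over all tested. The list was chosen with earlier results of these data known, so its share called cannot be weighed against that of all miRNAs. The list shares miR-202-5p with the gonad markers, miR-150-5p and miR-142a-3p with the leukocyte markers, miR-143-3p and miR-145a-5p with the smooth muscle markers, and miR-122-5p with the liver. Their median log2 change was 0.12, beside 0.15 over all tested and -0.10 for the 6 members. Leaving out hypobaric library 1 left 3 calls, hypobaric library 2 left 1, and normal-pressure library 3 left 5. Over all tested miRNAs the same refits left 11, 10 and 18 calls, in that order. On the summed miRNA values 3 were higher and 7 lower, beside 31 of 475 (6.53%) over all tested.

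The 4 that fell were miR-212-3p and miR-132-3p, induced by luteinizing hormone in mouse granulosa cells, miR-21a-5p, an anti-apoptotic miRNA of luteinizing granulosa cells, and miR-96-5p of the miR-183 cluster. Their log2 changes were -2.15, -1.37, -1.17 and -1.27, with limma adjusted p from 0.00513 to 0.0374. The 4 that rose were miR-335-5p from an intron of the imprinted gene Mest, the gonad-enriched miR-202-5p, miR-16-5p, a brake on the cell cycle that is also abundant in blood cells, and miR-10b-5p of the Hox clusters. Their log2 changes were 1.28, 1.15, 1.12 and 0.65, with limma adjusted p from 0.0114 to 0.0447.

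Of these, miR-335-5p had 5.96, 4.92 and 6.20 RPM in control replicates 1, 2 and 3 and 15.9, 18.8 and 11.7 RPM in hypobaric replicates 1, 2 and 3, with no overlap. The groups did not overlap in the other called miRNAs of the list either, nor in 127 of the 475 tested miRNAs (26.7%). The smallest p among those not called belonged to miR-182-5p, miR-150-5p and miR-24-3p, with log2 changes of -1.20, 0.70 and -0.75 and limma adjusted p of 0.0810, 0.0827 and 0.124. The estimates of the 6 members lie inside the range of the list, and none is as large as any of the 8 called. The 4 red cell miRNAs given above rose in the same comparison, and their part in these changes was not tested.

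**Figure D5:**
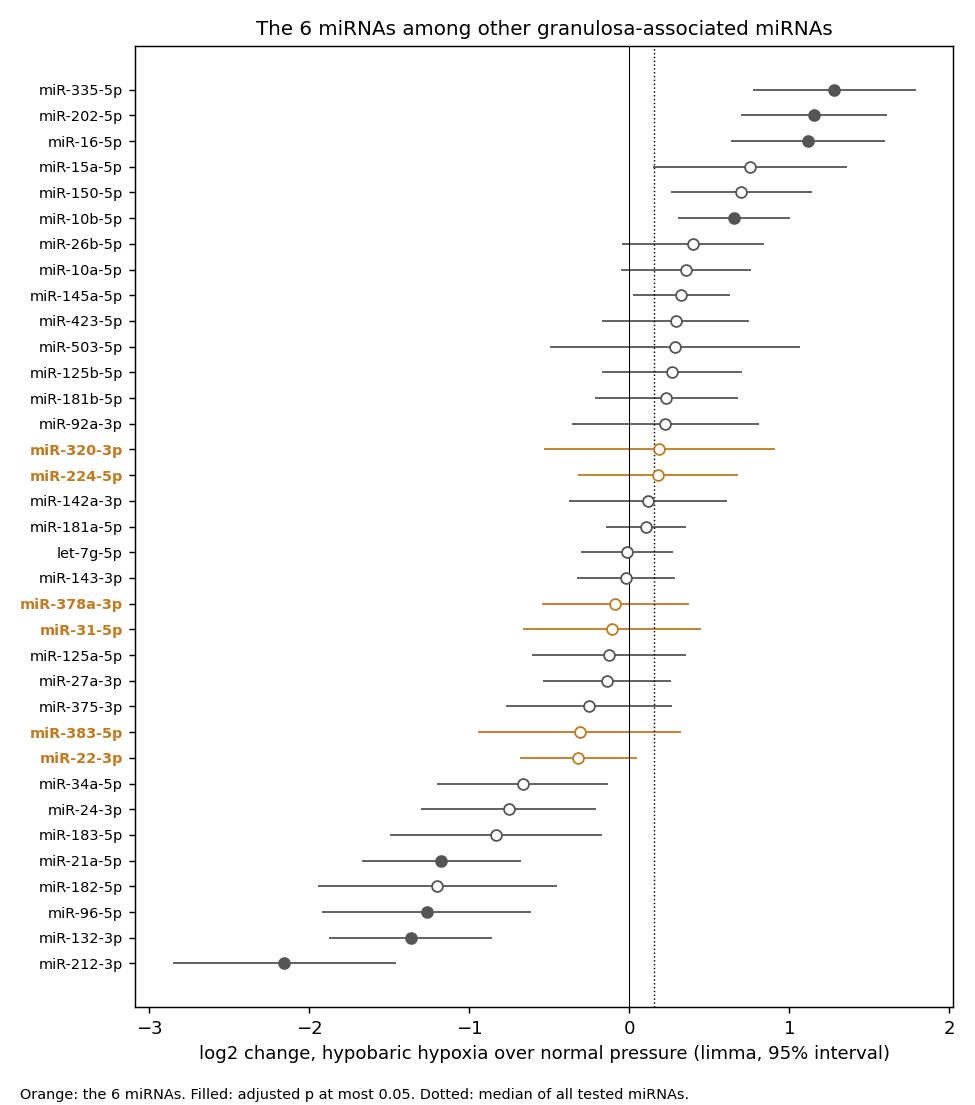
Log2 change (x axis) with its 95% limma interval for the 6 members (orange) and the 29 other tested granulosa-associated miRNAs (grey), filled where adjusted p is at most 0.05, with a dotted line at the median of all tested miRNAs. The 6 members, from -0.32 to 0.19, lie in the middle and are all open.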

How the data were processed

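Per the labels' protocols, libraries of gel-selected small RNA were made from 1.3 µg of total RNA and sequenced to 50 bases (single-end, DNBSEQ). Bowtie2, DESeq2 and GRCm38.p6 appear, with no role, in the submitters' processing notes. The rule by which reads matching several miRNAs were assigned is not stated there. The deposited values, named TPM, are RPM: at a tolerance of 0.0005 RPM, 100% were whole numbers of reads under a single total for each library. Floors and read numbers cover counting error only, because reads carry no molecular identifiers.

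Groups and replicate numbers come from the titles. The members and lists were chosen with earlier results of these data known. limma 3.58.1 (R 4.3.3), with an intensity trend, was run on log2(RPM + 1) for the 475 miRNAs averaging 1 RPM or more, at an adjusted p of 0.05. Fold changes on this scale understate those of low miRNAs. The recovered reads entered edgeR 4.0.16, which called 25, and DESeq2 1.42.0 as alternatives. Ratios were tested exactly in scipy 1.17.1. The fits were tested on simulated data. Named were all members, their other arms and neighbours, the 2 nearest profiles per member, and from the granulosa list the called miRNAs plus the 3 next by p.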

Additional observations from a re-analysis of the deposited data

How the results depend on the processing

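Alternatives to the test were pseudocounts of 0.5 and 0.1, filters, scalings, tools, annotated miRNAs only, no variance trend, a replicate block and leaving out each library. Chosen after seeing the data were removing normal-pressure library 2 with hypobaric library 3, and joining scaling to the miRNA sum with the block or with leaving out each library, and member ratios with nothing added. Members called went from 0 to 1, miR-22-3p each time, with the miRNA sum (log2 change -0.52, also with the block), quantile scaling (-0.61) and DESeq2 (-0.49). On the miRNA sum with each library left out, miR-22-3p ran from -0.59 to -0.47, was called at -0.59 and -0.56, and members called ran from 0 to 1. Calls over all miRNAs, 23, became 56 with DESeq2, 47 without the pair of libraries, 10 to 34 leaving out each library, and 11 to 36 doing so on the miRNA sum (15 without normal-pressure library 1 or 2). Calls in the granulosa list, 8, became 12 without the pair, 1 to 6 leaving out each library, and 3 to 10 doing so on the miRNA sum (4 without normal-pressure library 2 or hypobaric library 1).

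The sign reversed for miR-224-5p with quantile scaling (-0.0984), without the pair (-0.0139), and on the miRNA sum without normal-pressure library 2 (-0.0982), library 3 (-0.0227) or hypobaric library 3 (-0.0437). For miR-320-3p it reversed on the miRNA sum (-0.0175, also with the block), without the pair (-0.165), without hypobaric library 3 (-0.115), and on the miRNA sum without normal-pressure library 1 (-0.25) or hypobaric library 3 (-0.34). It reversed for miR-378a-3p without normal-pressure library 3 (0.0402) and for miR-31-5p without hypobaric library 2 (0.0631). Leaving out each library, these ran up to 0.35 for miR-224-5p and 0.42 for miR-320-3p, and down to -0.29 for miR-378a-3p and -0.27 for miR-31-5p. The cause of these reversals was not tested. miR-383-5p, miR-22-3p and the arm ratios kept their direction in every alternative run. miR-383-5p and miR-224-5p, which reads limit most, get no value with a filter at a mean of 10 RPM. With the replicate number as a block limma called 0 members and 23 miRNAs. Same-numbered libraries deviated together only for number 1 (correlation 0.346, beside -0.469 and -0.288 for numbers 2 and 3), so the numbers were not taken as pairs. The highest correlation was 0.556, between normal-pressure library 2 and hypobaric library 3.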
